A study of Mus musculus with 44 samples.

Results

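The control cochlear nuclei of mice operated on at postnatal day 21 (P21) were compared across 4 times after surgery, from 6 to 48 h. These were 11 of the 44 arrays of the study, chosen by the age, side and hour in their labels: 2 arrays at 6 h and 3 each at 12, 24 and 48 h. The cochlear nucleus is the first relay of hearing in the brainstem, and in this study 1 cochlea of each mouse was taken out at P7 or P21. The nucleus on the operated side lost its auditory nerve input, and the nucleus on the other side served as its control. Every control nucleus therefore came from an animal that had been through surgery and had become deaf in 1 ear, and there was no group without surgery. Total RNA came from nuclei that had been dissected fresh and snap frozen, and each array was a pool of tissue of its own. The p-values below describe the spread between such pools, and the number of animals in a pool was not given in the sources used here. Strain, sex, anaesthesia and the hour of day of surgery were likewise not given. Animals sampled later were also older, so time after surgery and age cannot be told apart.

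The course of the control nucleus matters because it carries whatever surgery and the hour of day do to the whole animal. In the circadian clock, CLOCK and BMAL1 (the product of Arntl) switch on the Per and Cry genes, whose proteins then repress them, while REV-ERB proteins (Nr1d1, Nr1d2) and ROR proteins act on Arntl in opposite ways. Output factors such as DBP carry the rhythm to other genes through a short DNA element, the D-box. Surgery also releases glucocorticoid hormone, which enters the brain and acts through the glucocorticoid receptor on target genes such as Fkbp5, Sgk1 and Tsc22d3, and the hormone has a daily rhythm of its own. In whole tissue, fewer cells of a type and less RNA per cell cannot be told apart.

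Values are log2 expression, so a difference of 1 is a doubling, and log2 5 was taken as the limit of background. The 11 arrays had medians between 5.963 and 6.052, and arrays of the same time correlated with r between 0.9597 and 0.9921. Their number limits the precision. Neuronal genes of the nucleus averaged between 8.75 and 9.33 over 23 genes in each array, and myelin genes between 10.67 and 10.96 over 16 genes. Of the neuronal genes, Slc6a5 and Gad2 had means under log2 5. Markers of the bordering choroid plexus averaged between 6.2 and 9.68 over 8 genes, so their level was uneven between arrays. Whether the amount of that tissue differed was not tested. Replicate 3 of 12 h and replicate 3 of 48 h stood apart. On the second principal component of all 44 arrays (17.2% of the variance) they lay between -37.2 and -30.4. Both 6 h arrays lay nearest to them, between -23.7 and -19.8, and the other 7 arrays lay between 3.8 and 25.8. The same separation held over all 44 arrays, with the 8 replicate 3 arrays of 12 and 48 h between -45.8 and -30.4, the 8 arrays of 6 h between -23.7 and -13.5 and the other 28 between -2.7 and 40.7. The labels name no batch. Every comparison was therefore also fitted without the 8 replicate 3 arrays, and with a term shared by those arrays and the 8 arrays of 6 h.

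**Figure D1:**
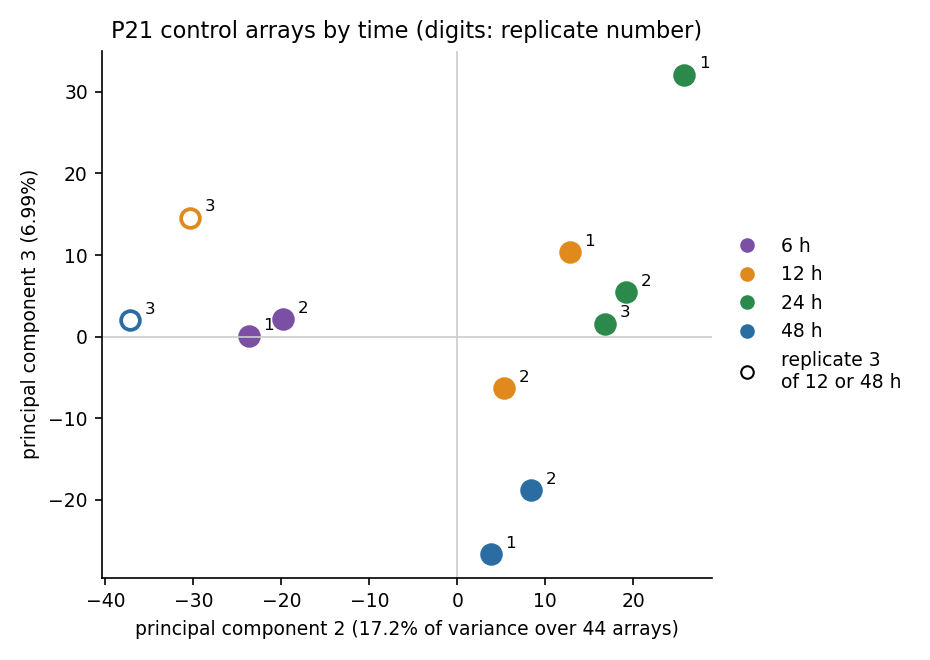
Position of the 11 P21 control arrays on principal components 2 (x) and 3 (y) of all 44 arrays, coloured by hours after surgery, with the replicate number beside each point and open circles for replicate 3 of 12 and 48 h. Replicate 3 of 12 and 48 h and both 6 h arrays lie at -19.8 or lower on the x axis, and the other 7 arrays at 3.8 or higher.

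With all 44 arrays, most calls lay between 24 h and either 6 or 48 h. Between 6 and 24 h, 102 of 15323 probe sets passed (0.666%; limma, adjusted p under 0.05), 56 higher and 46 lower at 24 h. Between 24 and 48 h, 223 passed (1.46%), 127 higher and 96 lower at 48 h. Few passed in the other pairs: 0 between 6 and 12 h (0%), where 948 had an unadjusted p under 0.05, 1 between 6 and 48 h (0.00653%), 5 between 12 and 24 h (0.0326%) and 1 between 12 and 48 h (0.00653%). In a test of any difference among the 4 times, 78 probe sets passed (0.509%). They held 36 genes by the probe set that represents each gene (0.405% of 8886), and the lowest of the 4 means was at 24 h in 25 of those 36 genes. The 36 genes were picked by this same test and the share over all genes was not computed, so the count of 25 is no separate result. The median difference over all probe sets lay between -0.017 and 0.032 in the 6 pairs.

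These counts moved with single arrays and with the arrays that stood apart. The count between 6 and 24 h was 0 without 6 h replicate 1, 6 h replicate 2 or 24 h replicate 1, 15 without 24 h replicate 2 and 164 without 12 h replicate 3. The count between 24 and 48 h was 0 without 24 h replicate 1 or 48 h replicate 1, 1 without 48 h replicate 3, 86 without 24 h replicate 2 and 570 without 24 h replicate 3. Without all 8 replicate 3 arrays of 12 and 48 h, the counts were 403 between 6 and 12 h (2.63%), 1609 between 6 and 24 h (10.5%), 567 between 6 and 48 h (3.7%) and 561 between 24 and 48 h (3.66%), against 4 between 12 and 24 h. All 102 probe sets called between 6 and 24 h were among the 1609. With the term shared by the 6 h arrays and those 8 arrays, however, 238 were called between 6 and 24 h (1.55%), of which 30 were among the 102. Between 24 and 48 h that fit called 831 (5.42%), among them all 223. It called 143 between 6 and 12 h and 11 between 12 and 24 h. For differences that involve 6 h, values with this term are given below for the genes described at length.

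**Figure D2:**
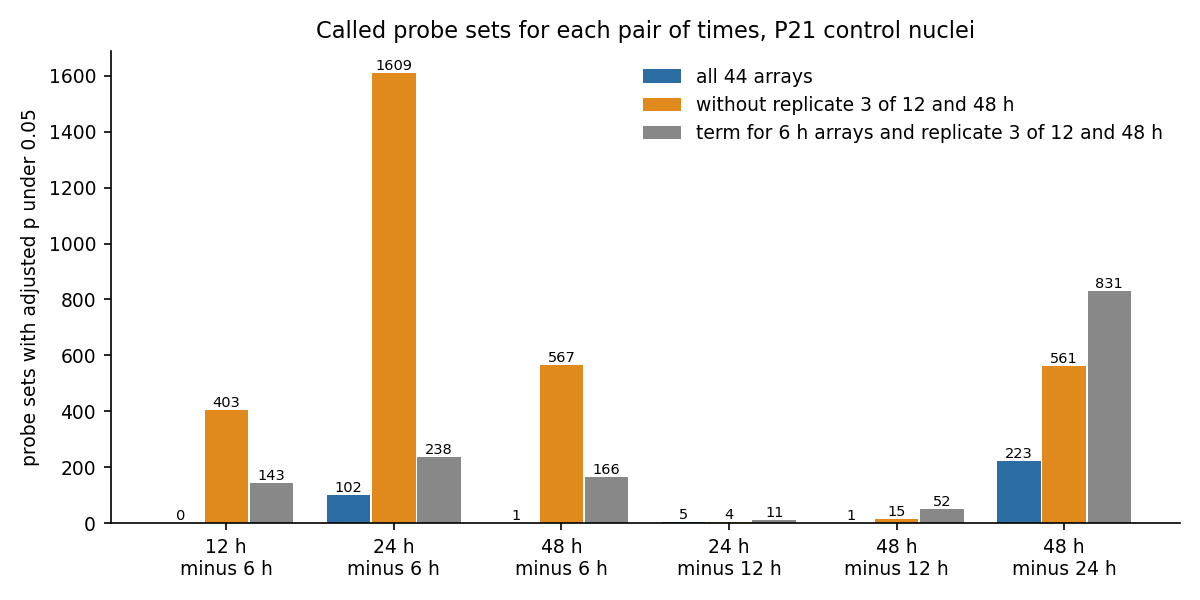
Number of probe sets called (limma, adjusted p under 0.05, y axis) for each pair of times (x axis) in P21 control nuclei, with all 44 arrays, without the 8 replicate 3 arrays of 12 and 48 h, and with a term shared by those arrays and the 6 h arrays. Leaving the 8 arrays out raised the count between 6 and 24 h from 102 to 1609, and with the shared term it was 238.

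Among clock genes, Dbp was low at 12 h and higher at 24 h. Of 25 genes in the clock list 20 were measured, and Dbp was the 1 that passed the test over the 4 times (limma adjusted p = 0.0192), against 36 of 8886 genes in all. Dbp, an output transcription factor of the clock, read 9.82 and 10.03 at 6 h, 8.33, 9.48 and 9.20 at 12 h, 9.94, 10.01 and 10.23 at 24 h, and 9.71, 10.14 and 10.04 at 48 h, with replicate 3 given last. All 3 arrays of 12 h, replicate 3 among them, lay below all 8 arrays of the other times, and those of 6, 24 and 48 h overlapped. Dbp rose by 1.06 ± 0.196 (SE) between 12 and 24 h, a 2.09-fold increase (limma adjusted p = 0.0281). Between 12 and 24 h, 4 of 8886 genes were called (0.045%). The call was lost without each of 5 arrays, among them 12 h replicate 3, with adjusted p up to 0.133. Without the 8 replicate 3 arrays the difference was 1.16 (adjusted p = 0.0617). With only the 11 arrays in the fit its adjusted p was 0.289, and a second probe set of Dbp gave 1.19 (adjusted p = 0.234). The difference between 6 and 12 h was -0.93 ± 0.220 and did not pass with all arrays (adjusted p = 0.273), but did without the 8 arrays at -1.02 (adjusted p = 0.0285) and with the term shared by the 6 h and replicate 3 arrays at -0.89 (adjusted p = 0.0471). The 0.96 ± 0.196 between 12 and 48 h did not pass with all arrays (adjusted p = 0.0863) and did with that term (adjusted p = 0.0241).

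Nr1d1, the gene of the repressor REV-ERB alpha, peaked at 24 h. Its values were 4.51 and 4.82 at 6 h, 5.79, 5.50 and 4.09 at 12 h, 6.50, 6.95 and 6.91 at 24 h, and 5.54, 5.33 and 3.39 at 48 h. All 3 arrays of 24 h lay above the other 8, and replicate 3 was the lowest array both at 12 h and at 48 h. Nr1d1 fell by 2.04 on the log2 scale between 24 and 48 h (SE 0.477, limma adjusted p = 0.0285), where 108 of 8886 genes were called (1.22%). Without the 8 replicate 3 arrays the difference was -1.35 (adjusted p = 0.0152). The call was lost without 24 h replicate 1, 24 h replicate 2, 48 h replicate 1 or 48 h replicate 3, with adjusted p up to 0.158. At 24 h the fitted value of Nr1d1 stood 2.12 ± 0.533 above 6 h (adjusted p = 0.0513). This became 1.12 with the term shared by the 6 h and replicate 3 arrays (adjusted p = 0.154). Both 6 h arrays and replicate 3 of 12 and 48 h were under the limit of background. The difference from 6 h is therefore no measured fold, and the fall of 2.04 takes in replicate 3 of 48 h. Samples of 24 and 48 h share their hour of day only if all surgeries were done at 1 hour of the day.

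The other clock genes did not pass in any pair with all 44 arrays. Nr1d2, the second REV-ERB gene, had the same order as Dbp at 12 and 24 h. It read 10.72 and 10.84 at 6 h, 10.48, 10.61 and 10.46 at 12 h, 11.02, 10.87 and 11.27 at 24 h, and 11.14, 10.79 and 10.94 at 48 h. Its 12 h arrays lay below all the others, with 0.54 ± 0.159 between 12 and 24 h (limma adjusted p = 0.228). Per1 and Per2, the light-responsive repressors, differed between 12 and 24 h by 0.55 ± 0.251 (adjusted p = 0.448) and 0.55 ± 0.269 (adjusted p = 0.491), and the groups did not overlap in either. Arntl was 0.53 ± 0.187 lower at 24 h than at 12 h (adjusted p = 0.317), the opposite sign to its repressor Nr1d1. Its lowest array, 24 h replicate 1 at 5.54, lay well below the other 24 h values of 6.37 and 6.11. Cry1, a repressor of CLOCK and BMAL1, was 0.58 ± 0.256 lower at 24 h than at 12 h (adjusted p = 0.427). Npas2, a relative of CLOCK, was 0.72 ± 0.243 lower (adjusted p = 0.3).

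Per3 is a case in which replicate 3 sets the reading. It read 6.75 and 7.13 at 6 h, 5.44 and 5.85 in replicates 1 and 2 of 12 h but 6.73 in replicate 3, 5.71, 6.10 and 6.39 at 24 h, and 6.29, 6.25 and 6.96 at 48 h. Replicate 3 was the highest array at 12 h and at 48 h, and at 12 h it lay next to the 6 h level. The difference between 6 and 12 h was -0.93 ± 0.302 with all arrays (limma adjusted p = 0.648), -1.29 without the 8 replicate 3 arrays (adjusted p = 0.0110) and -0.73 with the term shared with 6 h (adjusted p = 0.241). A second probe set of Per3 gave 0.04. Rora, an activator of Arntl, had a low replicate 3 at 12 h where that of Per3 was high. It read 8.34 and 8.50 at 6 h, and 9.20 and 9.38 against 8.75 in replicate 3 at 12 h. Its difference between 6 and 24 h was 1.03 ± 0.337 (adjusted p = 0.121), 1.03 without the 8 arrays (adjusted p = 4.9e-05) and 0.24 with the shared term (adjusted p = 0.552). Other probe sets of Rora gave 0.83 and -0.47. Usp2, a clock-controlled deubiquitinase, read 7.78 and 8.20 in replicate 3 of 12 and 48 h, below the other 9 arrays, which lay between 8.66 and 9.50. Without the 8 arrays the test over times called 4 clock genes (Per3, Nr1d1, Rora and Dbp) of 731 genes in all (8.23%), and with the shared term it called 2 of 344 genes in all (3.87%).

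The other 9 measured clock genes were Clock, Cry2, Tef, Hlf, Nfil3, Bhlhe40, Csnk1d, Csnk1e and Timeless. Their limma adjusted p over times lay between 0.241 for Csnk1e, a kinase that marks PER proteins for breakdown, and 0.972 for Hlf, a D-box factor like DBP. Second probe sets gave the reverse order, with 0.989 for Csnk1e and 0.0914 for Hlf. A second probe set of Tef gave -2.01 between 24 and 48 h (limma adjusted p = 0.0833), where the first gave -0.27. Over the 20 genes, 14 were higher at 24 h than at 12 h, with a median difference of 0.179 against -0.008 over all genes. Between 6 and 12 h, 13 of 20 were lower at 12 h, with a median of -0.041 against -0.025 over all genes. That median was -0.167 against -0.044 without the 8 replicate 3 arrays, where Per3 and Dbp were called lower and Rora higher, and -0.123 against -0.043 with the shared term, where Dbp and Usp2 were called lower. Between 24 and 48 h, 11 of 20 were lower at 48 h, with a median of -0.098 against 0.067.

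**Figure D3:**
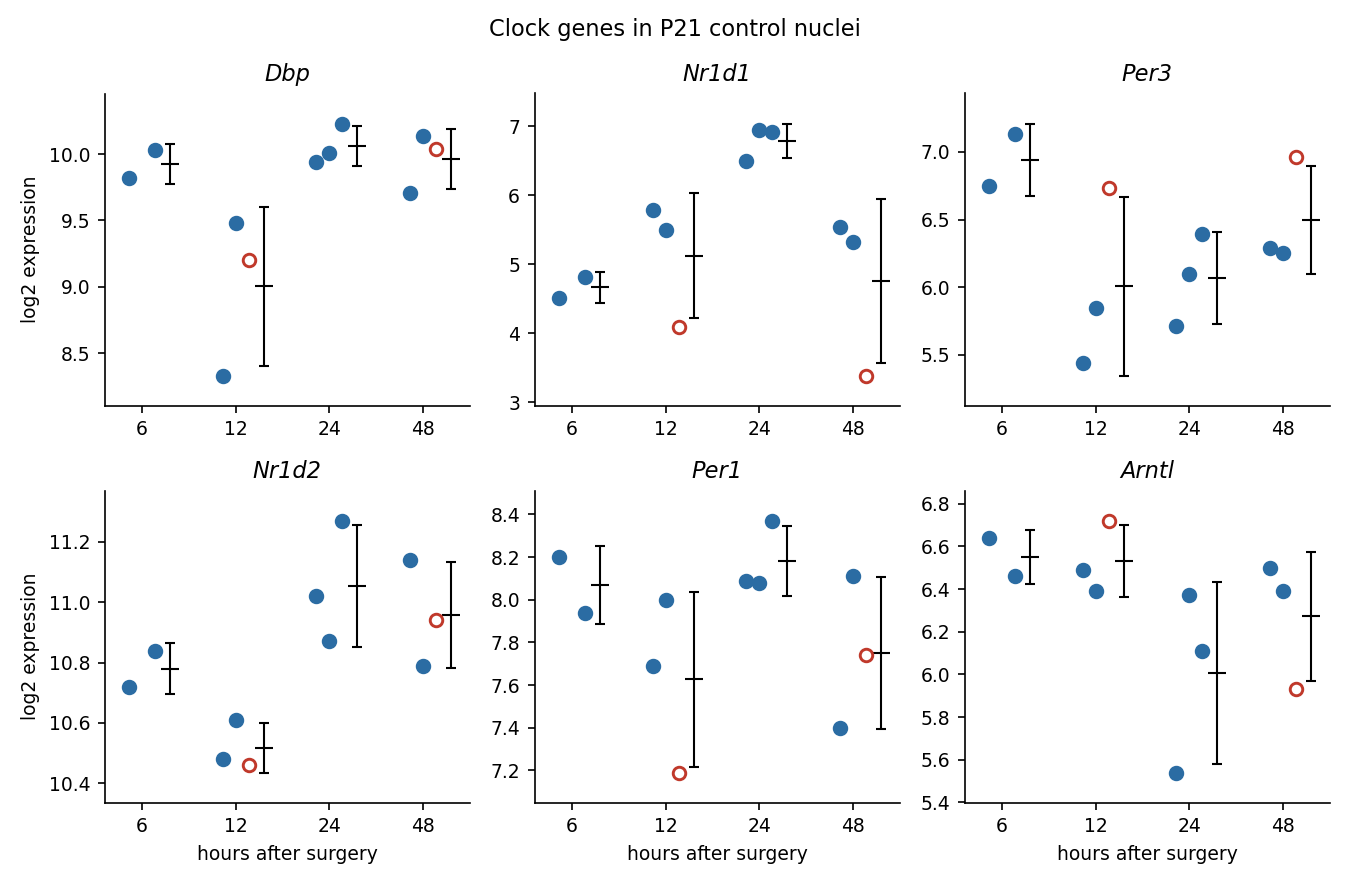
Log2 expression (y axis) of 6 clock genes in each P21 control array by hours after surgery (x axis, evenly spaced), with open red circles for replicate 3 of 12 and 48 h, and bars for the mean and SD of each time (n = 2 at 6 h, n = 3 at the other times). The 12 h arrays of Dbp and Nr1d2 lie below all other arrays of those genes, and the 24 h arrays of Nr1d1 lie above all others.

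Promoter sequences are shown for the clock genes Dbp and Per3 and for the hormone targets Fkbp5 and Sgk1, since the clock and the hormone act through known short elements. Each is the 250 bases before the RefSeq start, on the gene's own strand, 5′ to 3′, in GRCm38.p6. Capitals mark matches to CACGTG (the E-box bound by CLOCK and BMAL1), TTATGTAA or TTACGTAA (D-box letters) or AGAACA and TGTTCT with 3 bases between them (a full glucocorticoid receptor element), searched on both strands.
Dbp (chr7:45704997-45705246, plus strand): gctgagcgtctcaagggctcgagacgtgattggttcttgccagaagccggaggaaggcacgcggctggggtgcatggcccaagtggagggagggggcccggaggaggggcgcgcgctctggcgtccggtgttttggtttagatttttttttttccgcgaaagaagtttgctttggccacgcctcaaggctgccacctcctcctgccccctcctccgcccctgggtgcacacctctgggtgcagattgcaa
Per3 (chr4:151044666-151044915, minus strand): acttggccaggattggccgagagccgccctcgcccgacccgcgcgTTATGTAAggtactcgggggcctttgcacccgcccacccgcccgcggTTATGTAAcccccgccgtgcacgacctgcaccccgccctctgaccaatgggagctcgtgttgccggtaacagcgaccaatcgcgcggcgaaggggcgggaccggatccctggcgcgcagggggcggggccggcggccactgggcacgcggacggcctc
Fkbp5 (chr17:28486150-28486399, minus strand): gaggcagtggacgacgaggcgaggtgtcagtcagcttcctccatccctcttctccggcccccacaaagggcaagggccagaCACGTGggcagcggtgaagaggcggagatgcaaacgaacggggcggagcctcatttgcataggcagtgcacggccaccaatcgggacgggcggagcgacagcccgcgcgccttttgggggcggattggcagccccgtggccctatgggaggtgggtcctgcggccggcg
Sgk1 (chr10:21993640-21993889, plus strand, 1 of 6 RefSeq starts, the one whose window held the full element): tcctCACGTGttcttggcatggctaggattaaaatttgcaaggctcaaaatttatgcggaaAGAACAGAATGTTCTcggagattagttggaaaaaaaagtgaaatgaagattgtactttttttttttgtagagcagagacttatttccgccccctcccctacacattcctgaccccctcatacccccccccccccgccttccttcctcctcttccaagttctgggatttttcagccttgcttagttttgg
Per3 held TTATGTAA at 205 and 158 bases before its start. Fkbp5 held CACGTG at 169 bases, and Sgk1 held CACGTG at 246 bases and the full receptor element at 189 bases. The Dbp stretch held none of these letters. Over 32851 RefSeq windows of 300 bases, which run from 250 bases before to 50 after a start, CACGTG was in 7.15%, TTATGTAA in 0.938%, TTACGTAA in 0.119% and the full receptor element in 0.00913%, which is 3 windows. Of the 20 measured clock genes 17 had a window (25 windows in all), of which 4 windows held CACGTG and 2 held TTATGTAA. Of the 25 measured glucocorticoid genes 20 had one (30 windows), of which 4 held CACGTG and 1 the full element. Its right arm, TGTTCT, was in 19.0% of all windows and in 6 of those 30. A match describes the letters only.

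As a list, targets of glucocorticoid hormone had their highest levels at 6 h and their lowest at 48 h. Of 28 listed genes 25 were measured, and 4 passed the test over the 4 times (Fkbp5, Cdkn1a, Sult1a1 and Sgk1) against 0.405% of all genes. Between 6 and 48 h, 22 of the 25 were lower at 48 h, with a median of -0.517 against 0.03 over all genes, although Fkbp5 was the 1 gene called of 8886 in that pair (0.0113%). The median was -0.511 without the 8 replicate 3 arrays, where 6 of the 25 were called lower of 141 genes in all (1.59%), and -0.54 with the term shared by the 6 h and replicate 3 arrays, where 4 were of 102 genes in all (1.15%). The list's mean level was 8.76 and 8.86 in the 6 h arrays, between 8.49 and 8.76 at 12 h, between 8.41 and 8.66 at 24 h and between 8.26 and 8.39 at 48 h. The 48 h arrays thus lay below all others. In replicate 3 it was 8.70 at 12 h and 8.26 at 48 h, which was within the range of the other times at 12 h and the lowest of the 11 at 48 h. Of 16 meningeal genes 14 were also lower at 48 h than at 6 h, with a median of -0.295, as were 13 of 17 endothelial genes, with a median of -0.192. With the shared term these medians were -0.162 and -0.257. In the other pairs the lists fell alike in some and differed in the rest. Between 6 and 24 h the medians were -0.242 for meningeal, -0.227 for endothelial and -0.237 for glucocorticoid genes. Between 12 and 48 h they were -0.392, -0.302 and -0.267. Between 12 and 24 h they were -0.425, -0.188 and -0.012. Between 6 and 12 h the medians were 0.045 for meningeal, 0.104 for endothelial and -0.186 for glucocorticoid genes. Between 24 and 48 h they were -0.029, 0.165 and -0.248. The part of meningeal and endothelial genes in the difference between 6 and 48 h was not tested.

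Fkbp5 encodes a co-chaperone that holds the receptor in a low-affinity state and is among its best-known targets. It read 8.73 and 8.83 at 6 h, 7.68, 8.54 and 8.25 at 12 h, 8.26, 8.35 and 8.13 at 24 h, and 7.11, 7.62 and 7.56 at 48 h. Both 6 h arrays lay above, and all 48 h arrays below, every array of the other times, while 12 and 24 h overlapped. Fkbp5 fell by 1.35 between 6 and 48 h (SE 0.188, a 2.55-fold decrease, limma adjusted p = 0.000444). It also fell by 0.82 between 24 and 48 h (SE 0.168, adjusted p = 0.0148). The fall from 6 to 48 h was -1.42 without the 8 replicate 3 arrays (adjusted p = 0.000243) and -1.29 with the shared term (adjusted p = 0.000145), and was called in 10 of the 11 fits that leave out 1 array, the exception being 6 h replicate 2 (adjusted p = 0.0958). The fall from 24 to 48 h was lost without 24 h replicate 1, 24 h replicate 2, 48 h replicate 1 or 48 h replicate 3 (adjusted p up to 0.134). A dimmer probe set of Fkbp5 gave -0.31 between 6 and 48 h (adjusted p = 0.994). In the test over times Fkbp5 (adjusted p = 0.00472) was called in all 11 leave-one-out fits, but not with the 11 arrays fitted alone (adjusted p = 0.11). In that fit, which estimates the spread from fewer arrays, the fall from 6 to 48 h had an adjusted p of 0.218.

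Sgk1, a kinase that regulates ion channels, read 11.14 and 10.81 at 6 h, 10.03, 11.01 and 10.63 at 12 h, 10.71, 10.51 and 10.68 at 24 h, and 9.79, 9.80 and 10.10 at 48 h. The 48 h arrays lay below those of 6 and 24 h, and overlapped with 12 h through 12 h replicate 1 at 10.03. Sgk1 fell by 0.73 between 24 and 48 h (SE 0.193, limma adjusted p = 0.0458). That call was lost in 8 of 11 leave-one-out fits, namely without each array of 6, 24 and 48 h (adjusted p up to 0.272). Between 6 and 48 h it was -1.08 ± 0.216 (adjusted p = 0.0821), -1.18 without the 8 replicate 3 arrays (adjusted p = 0.00489) and -1.06 with the shared term (adjusted p = 0.00776).

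Cdkn1a, the cell cycle inhibitor p21, read 7.95 and 7.71 at 6 h, 7.62, 7.69 and 7.90 at 12 h, 7.40, 7.33 and 6.96 at 24 h, and 6.68, 6.88 and 6.94 at 48 h. All arrays of 48 h lay just below those of 24 h, which lay below all arrays of 6 and 12 h, and these last overlapped. It passed the test over times (limma adjusted p = 0.022), and its difference between 6 and 48 h was -1.0 ± 0.204 (adjusted p = 0.0821), -1.05 without the 8 replicate 3 arrays (adjusted p = 0.0046) and -0.97 with the shared term (adjusted p = 0.0105). Sult1a1, a sulfotransferase, read 8.40 and 7.83 at 6 h, 7.55, 8.36 and 8.64 at 12 h, 7.33, 7.68 and 7.20 at 24 h, and 6.62, 7.08 and 6.58 at 48 h. All its 48 h arrays lay below the other 8, and its adjusted p over times was 0.0319. Between 6 and 48 h it differed by -1.36 (adjusted p = 0.225), by -1.27 without the 8 arrays (adjusted p = 0.0167) and by -1.10 with the shared term (adjusted p = 0.0602). The calls over times were lost for Cdkn1a without 6 h, 24 h or 48 h replicate 1 (up to 0.0844), for Sult1a1 without 5 arrays (up to 0.0975) and for Sgk1, at 0.0386 with all arrays, in 7 of 11 fits (up to 0.131). Tsc22d3, which encodes the glucocorticoid-induced leucine zipper GILZ, did not pass with all arrays and read 10.74 and 10.80 at 6 h, 10.52, 10.41 and 10.78 at 12 h, 10.66, 10.44 and 10.57 at 24 h, and 10.22, 9.98 and 10.16 at 48 h. All its 48 h arrays lay below the other 8, and its difference between 6 and 48 h was -0.65 ± 0.232 (adjusted p = 0.805), -0.67 without the 8 arrays (adjusted p = 0.0455) and -0.75 with the shared term (adjusted p = 0.131).

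**Figure D4:**
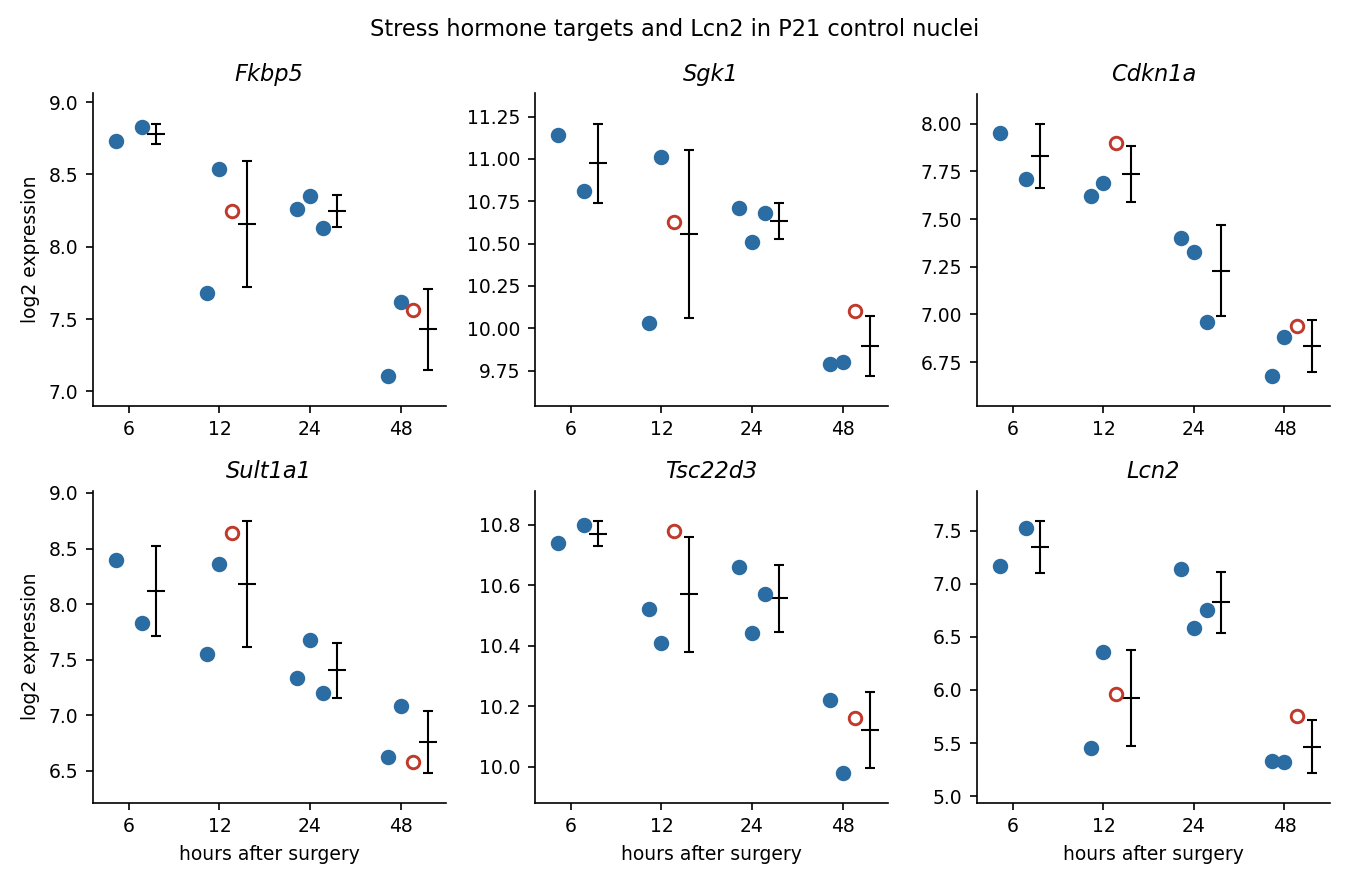
Log2 expression (y axis) of 5 glucocorticoid targets and Lcn2 in each P21 control array by hours after surgery (x axis, evenly spaced), with open red circles for replicate 3 of 12 and 48 h, and bars for the mean and SD of each time (n = 2 at 6 h, n = 3 at the other times). The 48 h arrays are the lowest for Fkbp5, Cdkn1a, Sult1a1 and Tsc22d3, and Lcn2 is high at 6 and 24 h.

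None of 16 measured acute phase and cytokine genes and none of 23 immediate early genes passed the limma test over times with all arrays. In that test 36 of 8886 genes passed (0.405%), and 2460 of the 15323 probe sets had an unadjusted p under 0.05. At that share, 0 calls do not set these lists apart from genes in general. Without the 8 replicate 3 arrays 2 of the 16 and 0 of the 23 were called (8.23% of all genes). With the term shared by the 6 h and replicate 3 arrays 1 and 0 were (3.87%). Fos, the neuronal activity gene, read 9.71 and 9.46 at 6 h, 9.50, 9.36 and 8.81 at 12 h, 9.98, 10.16 and 10.06 at 24 h, and 9.05, 9.69 and 9.47 at 48 h. Its 24 h arrays lay above all others, with 0.85 ± 0.279 between 12 and 24 h (limma adjusted p = 0.293). Junb read 5.91, 4.59 and 3.40 at 24 h, against 2.91 to 3.68 at the other times, so its 24 h mean rested on replicate 1. Lcn2, an acute phase protein that carries iron-binding compounds, read 7.17 and 7.52 at 6 h, 5.45, 6.36 and 5.96 at 12 h, 7.14, 6.58 and 6.75 at 24 h, and 5.33, 5.32 and 5.75 at 48 h. It was high at 6 and 24 h and low at 12 and 48 h with no overlap between those sets, and did not pass in any pair with all arrays, at -1.88 ± 0.48 between 6 and 48 h (adjusted p = 0.293) and -1.36 ± 0.43 between 24 and 48 h (adjusted p = 0.0825). Without the 8 replicate 3 arrays the first of these was -2.02 (adjusted p = 0.0431), and with the term shared by the 6 h and replicate 3 arrays it was -1.70 (adjusted p = 0.0914).

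Glial reaction genes gave no call over times with all arrays, among 22 measured reactive astrocyte genes and 23 microglial genes. In that test 0.405% of all genes passed. Without the 8 replicate 3 arrays, 5 of the 22 and 1 of the 23 were called, against 8.23% of all genes. The 5 were Gfap, Vim, Cp, Stat3 and Fbln5. With the term shared by the 6 h and replicate 3 arrays, 4 and 0 were called, against 3.87%. Gfap, the astrocyte filament, read 10.11 and 10.08 at 6 h, 10.43, 10.50 and 9.03 at 12 h, 11.04, 11.14 and 10.81 at 24 h, and 10.12, 10.07 and 8.58 at 48 h. All 24 h arrays lay above the other 8, and replicate 3 was the lowest array at 12 h and at 48 h. The difference between 24 and 48 h was -1.41 ± 0.551 (limma adjusted p = 0.147), and -0.90 without the 8 replicate 3 arrays (adjusted p = 0.0309). Mt3, a metallothionein of neurons and astrocytes, had the same 2 low arrays, with 10.47 in replicate 3 of 12 h and 9.55 in replicate 3 of 48 h against 11.74 to 12.96 in the other 9. The 6 h arrays of Gfap and Mt3 were not low in this way, so for these genes 6 h and replicate 3 did not move together. Timp1, an injury-induced protease inhibitor, lay between 4.32 and 4.62 in all 11 arrays, under the limit of background. Cd68, a lysosomal marker of microglia, lay between 4.06 and 5.70.

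S100a8, a calcium-binding protein of neutrophils and other myeloid cells, was higher at 24 h than at 6 h. It read 3.94 and 3.95 at 6 h, 4.08, 4.27 and 4.27 at 12 h, 5.25, 5.79 and 5.49 at 24 h, and 5.61, 6.02 and 5.60 at 48 h. The 6 and 12 h arrays were all below the limit of background, the 24 and 48 h arrays were all above it, and the latter overlapped each other. S100a8 rose between 6 and 24 h, with a fitted difference of 1.57 ± 0.353 (limma adjusted p = 0.035) that is no measured fold, since its 6 h arrays were under that limit. It passed the filter on low values through groups in which it was high. The fitted difference was 1.77 with the term shared by the 6 h and replicate 3 arrays (adjusted p = 0.0114), and the call was lost without 6 h replicate 1, 6 h replicate 2, 24 h replicate 1 or 24 h replicate 2 (adjusted p up to 0.399). Between 6 and 48 h the fitted difference was 1.79 ± 0.353 (adjusted p = 0.0821), with adjusted p of 0.00334 without the 8 replicate 3 arrays and 0.00167 with the shared term. In the test over times it was called in all 11 leave-one-out fits, with adjusted p of 0.0386 or less. Its partner S100a9 read 5.70 and 5.77 at 6 h, 5.62, 5.95 and 6.25 at 12 h, 6.70, 6.86 and 6.45 at 24 h, and 6.46, 6.70 and 6.07 at 48 h, and its 0.93 ± 0.279 between 6 and 24 h did not pass with all arrays (adjusted p = 0.0862). It did without the 8 arrays (adjusted p = 0.00282) and with the shared term, at 1.19 (adjusted p = 0.0293). Mmp9, another neutrophil gene, lay between 3.19 and 4.23, and Ngp, Camp, Ltf, Mmp8 and Retnlg were not among the genes measured. Whether neutrophil number bears on the rise of S100a8 was not tested.

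Between 6 and 24 h, 39 of 8886 genes were called (0.439%), and the increases with the largest fitted differences were Wasf3, S100a8, Ids, Fam160b1 and Dgkq. Wasf3, an actin regulator, read 3.43 and 4.36 at 6 h, 5.50, 5.15 and 4.14 at 12 h, 6.21, 5.63 and 5.94 at 24 h, and 5.0, 4.47 and 4.14 at 48 h. Its replicate 3 arrays of 12 and 48 h were the lowest of their times and within the range of 6 h. Its fitted difference of 2.03 ± 0.438 (limma adjusted p = 0.035) is no measured fold, since both 6 h arrays were under the limit of background, and was 1.43 with the shared term (adjusted p = 0.0629). Ids, a lysosomal sulfatase, read 6.01 and 6.40 at 6 h, 7.55, 7.08 and 7.14 at 12 h, 7.76, 7.31 and 8.22 at 24 h, and 6.97, 6.96 and 6.89 at 48 h. Only its 6 h arrays stood apart, replicate 3 being close to the others, and its rise of 1.56 ± 0.346 (adjusted p = 0.035) was 1.53 with the shared term (adjusted p = 0.0324). Fam160b1 at 1.32 and Dgkq, a diacylglycerol kinase, at 1.27 did not pass with that term (adjusted p = 0.111 and 0.134).

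The largest decreases between 6 and 24 h were Rrm2, Zfp62, Ggact, Apcdd1 and Mxd4, from -1.50 to -1.10. None of these 5 passed with the shared term, where their limma adjusted p lay between 0.0549 for Rrm2 and 0.119 for Ggact. Apcdd1, an inhibitor of Wnt signalling, read 9.22 and 9.06 at 6 h and 9.31 and 9.50 in replicate 3 of 12 and 48 h, and the other 7 arrays lay between 7.87 and 8.63. Its fall was -1.13 ± 0.264 with all arrays (adjusted p = 0.0411) and -0.63 with the term (adjusted p = 0.107). Zfp62, a zinc finger protein, likewise read 7.38 and 7.65 in those replicate 3 arrays beside 7.71 and 7.47 at 6 h. Rrm2 averaged 3.88 at 24 h, under the limit of background, so its fitted -1.50 is no measured fold. Other probe sets of Rrm2 gave 0.04 and -0.11, and a second probe set of Zfp62 gave -0.37. Mxd4, a partner of MAX, had a second probe set with the opposite sign, 0.24. All calls on named genes between 6 and 24 h were lost without 6 h replicate 1, 6 h replicate 2 or 24 h replicate 1, with adjusted p up to 0.44.

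Between 12 and 24 h the called genes were Dbp and Gpr146, which rose, and Arpc5 and Plat, which fell. Arpc5, a subunit of the Arp2/3 complex that nucleates actin, read 9.62 and 9.41 at 6 h, 9.58, 9.74 and 10.01 at 12 h, 8.95, 8.96 and 9.04 at 24 h, and 9.52, 9.38 and 9.65 at 48 h. The 24 h arrays lay within a narrow band below all others. Arpc5 fell by 0.79 between 12 and 24 h (SE 0.121, limma adjusted p = 0.00259), and rose by 0.53 ± 0.121 between 24 and 48 h (adjusted p = 0.0236). The call on the fall was lost without 12 h replicate 3 (adjusted p = 0.064) and with the 11 arrays fitted alone (adjusted p = 0.198). Without all 8 replicate 3 arrays the fall was -0.68 (adjusted p = 0.0384). Plat, tissue plasminogen activator, fell by 0.73 (SE 0.132, adjusted p = 0.0281), from 9.60, 10.12 and 10.19 at 12 h to 9.07, 9.38 and 9.28 at 24 h. That fall was -0.61 without the 8 arrays (adjusted p = 0.12), and was lost without 12 h replicate 2, 12 h replicate 3 or 24 h replicate 1.

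Gpr146, a receptor without an agreed ligand, was near the limit of background. It read 4.55 and 4.44 at 6 h, 4.60, 4.12 and 4.50 at 12 h, 5.52, 5.20 and 5.31 at 24 h, and 4.49, 4.51 and 4.51 at 48 h. The 24 h arrays were the only ones of the 11 above log2 5, so among them Gpr146 passed the filter on low values only through the time at which it was high. The fitted difference was 0.94 ± 0.186 between 12 and 24 h (limma adjusted p = 0.0483) and -0.84 ± 0.186 between 24 and 48 h (adjusted p = 0.0203), neither of them a measured fold. The rise held in 1 of 11 leave-one-out fits, without 12 h replicate 1, and the fall was lost without 24 h replicate 1, 48 h replicate 1 or 48 h replicate 3. The fifth probe set called between 12 and 24 h, a probe set of Erc1, a synaptic scaffold gene (adjusted p = 0.0483), and the only one called between 12 and 48 h, a probe set with no symbol in the annotation used here (adjusted p = 0.0291), are named here after their values were seen. The first read 4.80, 5.20 and 4.63 at 24 h against 5.62 to 6.37 at the other times, and the second 7.48, 7.85 and 7.63 at 48 h against 8.13 to 9.45. The count between 12 and 24 h ran from 0 without 12 h replicate 3 to 11 without 12 h replicate 2, was 1 without 24 h replicate 1, 8 without 24 h replicate 3 and 3 without any 1 array of 6 or 48 h. That between 12 and 48 h was 0 without 12 h replicate 3 or any 1 array of 48 h, 43 without 12 h replicate 2, 4 without 12 h replicate 1 and 2 without 24 h replicate 1.

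Aplnr, the receptor of apelin, found on endothelial cells, had the largest fitted increase between 24 and 48 h, from values under the limit of background. It read 4.78 and 5.21 at 6 h, 4.70, 5.57 and 4.36 at 12 h, 3.17, 3.06 and 4.82 at 24 h, and 6.15, 6.48 and 5.99 at 48 h. The 48 h arrays lay above all others, and 24 h replicate 3 lay among the arrays of 6 and 12 h. The fitted difference was 2.52 ± 0.465 (limma adjusted p = 0.0116) and is no measured fold, since all 24 h arrays lay under log2 5, while a second probe set gave -0.39. Fabp7, a fatty acid binding protein of radial glia and astrocytes, read 10.56 and 11.05 at 6 h, 10.75, 10.60 and 10.96 at 12 h, 9.85, 10.13 and 10.01 at 24 h, and 10.79, 10.99 and 11.22 at 48 h. Its 24 h arrays lay below the other 8, and it rose by 1.01 ± 0.186 (adjusted p = 0.0116). Both calls were lost without 24 h replicate 1, 48 h replicate 1 or 48 h replicate 3 (adjusted p up to 0.123).

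Slc40a1, the iron exporter ferroportin, rose by 1.03 ± 0.252 (limma adjusted p = 0.0345), from 6.02, 5.83 and 6.18 at 24 h to 7.02, 6.89 and 7.20 at 48 h. Rrm2, a subunit of the enzyme that makes DNA building blocks, rose by 1.27 ± 0.294 (adjusted p = 0.0276), from 3.38, 4.30 and 3.97, under the limit of background, to 5.44, 4.76 and 5.27, with other probe sets at 0.02 and 0.43. It was the 1 gene of 19 measured cell division genes called over times, and 15 of the 19 had means under log2 5. Frmd4b, a scaffold protein, rose by 1.01 ± 0.258 (adjusted p = 0.0408), and its adjusted p was 0.0528 without the 8 replicate 3 arrays.

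The largest decreases between 24 and 48 h were Pglyrp1, Nr1d1, Nebl, Slc6a5 and Epas1. Pglyrp1, an antibacterial protein of neutrophil granules that is also made in brain, read 6.92 and 6.82 at 6 h, 5.75, 5.66 and 5.03 at 12 h, 7.06, 6.19 and 6.37 at 24 h, and 5.15, 5.06 and 3.14 at 48 h. Like Lcn2 it was high at 6 and 24 h and low at 12 and 48 h with no overlap. It fell by 2.09 between 24 and 48 h (SE 0.514, limma adjusted p = 0.0341), and by 1.44 without the 8 replicate 3 arrays (adjusted p = 0.0188), since replicate 3 of 48 h was far below the other 48 h arrays. Epas1, a hypoxia-inducible factor of endothelium, read 5.77 and 5.69 at 6 h, 7.63, 6.72 and 5.70 at 12 h, 7.66, 7.08 and 6.87 at 24 h, and 5.90, 6.06 and 5.51 at 48 h. Its 12 h replicate 3 lay with 6 h, and the fall of 1.38 between 24 and 48 h (SE 0.356, adjusted p = 0.0432) was lost in 7 of 11 leave-one-out fits. Nebl, an actin-binding protein, fell by 1.60 (SE 0.405, adjusted p = 0.0398), from 4.63, 4.61 and 5.32 at 24 h to 3.19, 2.85 and 3.73 at 48 h, values mostly under the limit of background. Slc6a5, the glycine transporter of inhibitory neurons, is described with the neuronal genes. All calls on named genes between 24 and 48 h were lost without 24 h replicate 1, 48 h replicate 1 or 48 h replicate 3, with adjusted p up to 0.327.

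**Figure D5:**
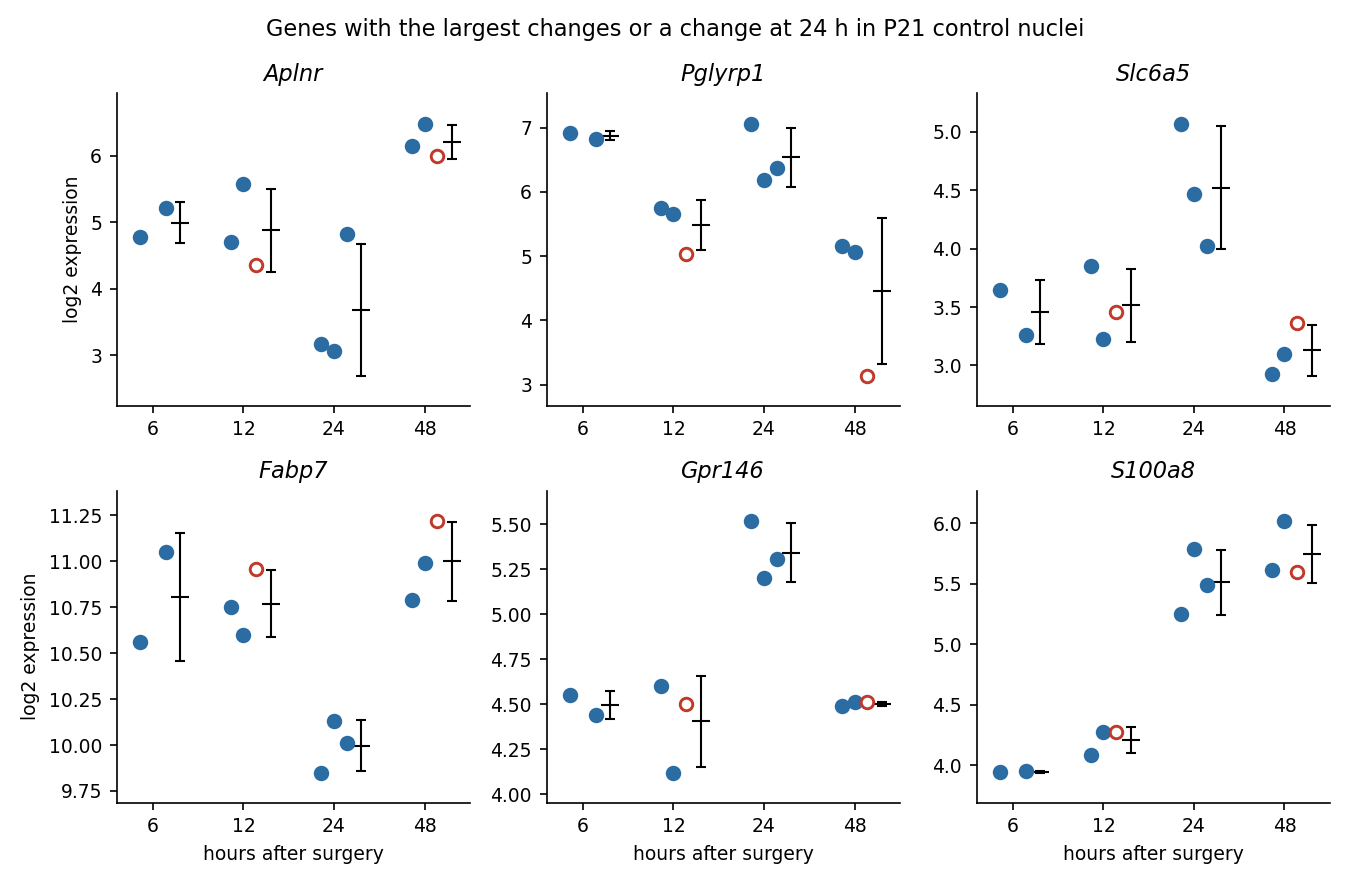
Log2 expression (y axis) of Aplnr, Pglyrp1, Slc6a5, Fabp7, Gpr146 and S100a8 in each P21 control array by hours after surgery (x axis, evenly spaced), with open red circles for replicate 3 of 12 and 48 h, and bars for the mean and SD of each time (n = 2 at 6 h, n = 3 at the other times). The 24 h arrays are the highest for Gpr146 and Slc6a5 and the lowest for Fabp7, and S100a8 is above log2 5 at 24 and 48 h only.

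Chaperone and sterol genes had their lowest list levels at 12 or 24 h. None of the 20 genes of the unfolded protein response passed over times with all arrays, but 17 were lower at 12 h than at 6 h, with a median of -0.249 against -0.025 over all genes. At 24 h 18 of 20 lay below 6 h, with a median of -0.195 against -0.042. With the shared term these medians were -0.165 against -0.043 and -0.227 against -0.059. Over times, 4 of the 20 were called without the 8 replicate 3 arrays (8.23% of all genes) and 1 with that term (3.87%). Hspa5, the main chaperone of the endoplasmic reticulum, read 11.93 and 11.78 at 6 h, 11.46, 11.21 and 11.58 at 12 h, 11.37, 11.26 and 11.45 at 24 h, and 11.64, 11.93 and 11.71 at 48 h. Its 12 and 24 h arrays lay below all those of 6 and 48 h, with -0.50 ± 0.142 between 6 and 24 h (limma adjusted p = 0.0793), and the adjusted p was 0.0187 without the 8 replicate 3 arrays and 0.139 with the shared term. Hspe1, the mitochondrial co-chaperone, was the 1 of 18 heat shock genes called in a pair. It rose by 0.64 ± 0.143 between 24 and 48 h (adjusted p = 0.0227), from 10.57, 10.71 and 10.82 to 11.54, 11.32 and 11.15. Of 15 sterol synthesis genes, 12 were higher at 48 h than at 24 h, with a median of 0.301 against 0.067 over all genes. Idi1, which isomerises the isoprenoid unit, was the 1 called. It rose by 0.75 ± 0.182 (adjusted p = 0.0322), from 10.06, 9.65 and 10.15 to 10.82, 10.39 and 10.90. Lists of interferon response, hypoxia, oxidative stress, and fasting genes gave no call over times with all arrays, with 13, 17, 13 and 14 genes measured. Without the 8 replicate 3 arrays they gave 1, 4, 1 and 0 calls, and with the shared term 0, 1, 1 and 1. Cirbp, the cold-inducible RNA-binding protein, read 7.68 and 7.49 at 6 h and 7.86, 8.36 and 8.76 at 12 h, with replicate 3 the highest, and its 0.74 between these times did not pass (adjusted p = 0.696, and 0.212 with the shared term).

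Among markers of other cell types, all 8 measured choroid plexus genes were higher at 48 h than at 12 h, with a median difference of 1.968 against 0.06 over all genes, and none passed. Kcne2, a potassium channel subunit of that tissue, read 7.44 and 6.39 at 6 h, 5.44, 4.73 and 6.80 at 12 h, 4.82, 7.44 and 7.57 at 24 h, and 7.55, 9.94 and 7.90 at 48 h. Within 24 h alone it ranged from 4.82 to 7.57. The list's mean level was 6.99 and 8.25 in the 6 h arrays, 6.2 to 7.85 at 12 h, 6.27 to 8.10 at 24 h and 7.82 to 9.68 at 48 h. Of 16 meningeal genes 15 were lower at 24 h than at 12 h, with a median of -0.425 against -0.008, and 16 of 17 endothelial genes were too, with a median of -0.188. Neither list gave a call with all arrays. Over times, 5 of the meningeal and 0 of the endothelial genes were called without the 8 replicate 3 arrays (8.23% of all genes). With the shared term 2 and 0 were called (3.87%). Meningeal level was between 8.26 and 8.37 at 6 h, between 8.12 and 8.58 at 12 h, and between 7.88 and 8.02 both at 24 h and at 48 h.

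Most neuronal genes had higher values at 24 h than at 12 h, with no call. Of 23 measured, 19 were higher at 24 h (median 0.209 against -0.008). That median was 0.079 against 0.015 without the 8 replicate 3 arrays and 0.056 against -0.01 with the shared term. Between 24 and 48 h, 20 were lower at 48 h (median -0.169 against 0.067). Slc6a5 was the 1 called, with a fitted difference of -1.39 (SE 0.304, limma adjusted p = 0.0203), from 5.07, 4.47 and 4.02 to 2.93, 3.10 and 3.36, so all but 1 of these values lay under the limit of background. Kcna2, a potassium channel of fast-firing auditory neurons, read 6.59 and 6.74 at 6 h, 7.98, 7.61 and 6.65 at 12 h, 8.58, 7.52 and 7.75 at 24 h, and 6.68, 6.87 and 6.74 at 48 h. Kcnc1, which lets such neurons repolarise quickly, was likewise highest in 24 h replicate 1, at 9.14. The neuronal mean level was 9.13 to 9.33 at 24 h and at most 9.11 in the other arrays. The part of these cell type markers in the differences at 24 h was not tested. Astrocyte genes (18 measured), oligodendrocyte genes (16), cerebellar genes (13) and red blood cell genes (2 of 8 listed) gave no call over times with all arrays. Without the 8 replicate 3 arrays 2 of these astrocyte genes were called (8.23% of all genes), and 2 with the shared term (3.87% of all genes). Of the 23 neuronal genes, 3 were called over times without those arrays (Slc6a5, Kcna2 and Kcnc1) and 1 with that term.

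On the operated side Fkbp5 had the same order of times and Dbp was also lowest at 12 h, but Dbp had its highest mean at 48 h there and at 24 h in control nuclei. Dbp averaged 9.93 ± 0.15 (SD), 9.0 ± 0.60, 10.06 ± 0.15 and 9.96 ± 0.23 in control nuclei at 6 (n = 2), 12, 24 and 48 h (n = 3 each), and 10.12 ± 0.03, 9.55 ± 0.18, 9.67 ± 0.33 and 10.44 ± 0.13 in deafferented nuclei. Fkbp5 averaged 8.78 ± 0.07, 8.16 ± 0.44, 8.25 ± 0.11 and 7.43 ± 0.28 in control nuclei and 8.76 ± 0.04, 8.19 ± 0.21, 8.35 ± 0.27 and 7.32 ± 0.11 in deafferented nuclei. Nr1d1 was highest at 24 h on both sides, at 6.79 ± 0.25 and 6.63 ± 0.12. The test of side by time had a limma adjusted p of 1 for Dbp, Fkbp5 and Sgk1, which does not show that the sides acted alike. It called 32 of 15323 probe sets (0.209%), holding 21 genes (0.236%). Arrays of the 2 sides share numbers in the titles, and with the pair of arrays of 1 time and number as a block the test called 55 probe sets. With that block Dbp had an adjusted p of 0.0978 and Fkbp5 and Sgk1 of 1. Gfap (0.00935), Fabp7 (0.00338) and Vim, a filament of astrocytes (0.0213), were called with the block, against adjusted p of 1, 0.406 and 0.573 without it. In 20 of the 21 genes called without the block the spread of the 4 means was larger on the deafferented side, as in Timp1 with 4.16 against 0.08 in control nuclei, Tgm1, a protein cross-linking enzyme, with 3.15 against 0.14, and Atf3, a stress transcription factor, with 2.36 against 0.08. In 1, Gpr146, it was larger in control nuclei, 0.94 against 0.71, with all its deafferented means under the limit of background. The control means of Timp1, Tgm1 and Atf3 were under that limit at all times, so their small control ranges are floor values. Hspb1, above the limit on both sides, had 1.93 against 0.73. The 21 genes were picked by this same test, so the count of 20 is no separate result.

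Control nuclei of mice operated on at P7 gave the same order for Fkbp5. S100a8 averaged under the limit of background there, so its order of times at P7 cannot be read. Fkbp5 averaged 8.51 ± 0.05, 8.04 ± 0.16, 8.13 ± 0.11 and 7.44 ± 0.13 at P7 for the 4 times, and the test of age by time had a limma adjusted p of 0.975. Dbp was lower at P7, at 7.87 ± 0.11, 7.04 ± 0.15, 8.94 ± 0.11 and 8.59 ± 0.17, with its lowest mean at 12 h at both ages (adjusted p for age by time 0.279). Sgk1 stayed between 9.17 and 9.45 at P7 while its P21 means ran from 10.98 at 6 h to 9.90 at 48 h, and that difference did not pass (adjusted p = 0.155). S100a8 lay between 3.55 and 4.02 on average at P7, under the limit of background at all times, with an adjusted p for age by time of 0.103, and 0.0173 without the 8 replicate 3 arrays. With all arrays the test of age by time called 1 probe set (0.00653%), a probe set of St8sia2, a sialyltransferase of neural development (adjusted p = 0.00569), named after its values were seen, and 1499 had an unadjusted p under 0.05. That count was 6 without P21 12 h replicate 2, 2 without 12 h replicate 3, 0 without 48 h replicate 3 and 176 (1.15%) without all 8 replicate 3 arrays.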

How the data were processed

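Gene expression was measured on Affymetrix arrays in 44 samples of mouse cochlear nucleus, and the 11 P21 control arrays are described here. The deposited values are log2 expression per probe set, which the authors computed with GCRMA, per the submitters' processing notes; its version was not given in the sources used here. GCRMA subtracts background by probe sequence, which compresses or stretches differences near the limit of background. The members and the gene lists were chosen with earlier results of these data known.

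Of 22626 probe sets, 20380 had 1 symbol in the platform annotation, 691 had several and 1555 had none; 20351 were matched to RefSeq GRCm38.p6 by gene identifier. The fit used the 15323 probe sets that exceeded log2 5 on 2 arrays or more (1226 of them with several symbols or none). limma 3.58.1 in R 4.3.3 was fitted to all 44 arrays with 1 mean for each of 16 groups and a trend in the variance (28 residual degrees of freedom, 5.27 prior). All groups thus shared 1 estimate of the spread. The 6 pairs of times, any difference among times, side by time and age by time were tested, with Benjamini-Hochberg adjustment over all kept probe sets in each and a call at an adjusted p under 0.05. Errors of differences are standard errors from that fit. The fit and its contrasts were tested on simulated data.

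For the 8886 genes, the brightest probe set on average across the 44 arrays stood for the gene. Genes were named by rule: every measured clock gene, the 5 largest called increases and decreases of each pair, up to 4 members of each other list by their p over times, and 14 fixed genes. The 24 lists covered the clock, glucocorticoid response, immediate early genes, acute phase and cytokines, interferon, heat shock, cold, the unfolded protein response, hypoxia, oxidative stress, fasting, sterol synthesis, reactive astrocytes, microglia, cell division and markers of 9 cell types.

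Replicate numbers were shared by the groups. Deviations from group means correlated between -0.16 and 0.532 for arrays of the same number (15 pairs) and between -0.421 and 0.414 for different numbers (30 pairs), so the numbers were not taken to pair arrays across times. Between control and deafferented arrays of 1 time, which come from opposite nuclei and share numbers in the titles, they correlated between 0.0642 and 0.714 for the same number (over 0.1 in 9 of 11 pairs) and between -0.617 and 0.506 for different numbers (20 pairs). The sources used here do not say that the same mice gave both pools, so side by time is given without and with the pair as a block. Alternatives were the filter, the normalization, the variance trend, a fit of the compared groups alone, each array left out in turn, the 8 replicate 3 arrays of 12 and 48 h left out or given a term, the replicate block, other probe sets, and a term shared by those arrays and the 8 arrays of 6 h, chosen after seeing the data.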

Additional observations from a re-analysis of the deposited data

Results flagged for a closer look

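The genes Gpr146, Hspb1 and Timp1 passed the limma test of side by time in P21 nuclei, which asks whether the course differs between the control and the deafferented side. Gpr146 (adjusted p = 0.0223) averaged 4.50 ± 0.08 (SD), 4.41 ± 0.25, 5.35 ± 0.16 and 4.50 ± 0.01 at 6, 12, 24 and 48 h in control nuclei and 4.22 ± 0.02, 4.91 ± 0.11, 4.35 ± 0.31 and 4.20 ± 0.03 in deafferented nuclei. Its highest mean was thus at 24 h on the control side and at 12 h on the other, at levels near the limit of background, which only its 24 h arrays passed among the control nuclei. All its deafferented means lay under that limit, so the order of times on that side cannot be read. Hspb1 encodes a chaperone of the small heat shock family. It (adjusted p = 0.00252) averaged 8.97 ± 0.08, 8.76 ± 0.14, 8.65 ± 0.22 and 8.24 ± 0.17 in control nuclei against 8.80 ± 0.06, 8.76 ± 0.33, 10.43 ± 0.61 and 8.50 ± 0.33. Timp1 (adjusted p = 0.00316) averaged between 4.37 and 4.45 in control nuclei at all times, against 4.41 ± 0.17, 4.71 ± 0.12, 8.57 ± 0.63 and 6.91 ± 1.67 in deafferented nuclei. Without the 8 replicate 3 arrays of 12 and 48 h the adjusted p was 0.0304 for Gpr146, 0.00467 for Hspb1 and 0.0501 for Timp1, whose call was lost. With the pair of arrays of 1 time and number as a block it was 0.00221, 0.00188 and 0.00399.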

How the results depend on the processing

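Counts of called probe sets depended on the arrays in the fit, and the cause was not tested beyond the terms named. In the order 12 minus 6, 24 minus 6, 48 minus 6, 24 minus 12, 48 minus 12 and 48 minus 24 h, then any time, side by time and age by time, the counts with all arrays were 0, 102, 1, 5, 1, 223, 78, 32 and 1. Without the 8 replicate 3 arrays of 12 and 48 h they were 403, 1609, 567, 4, 15, 561, 1529, 34 and 176, and with a term for those arrays 641, 1444, 607, 11, 52, 831, 1678, 40 and 128. With the term shared with the 6 h arrays, chosen after seeing the data, they were 143, 238, 166, 11, 52, 831, 607, 40 and 128. With the compared groups fitted alone, which leaves fewer arrays to estimate the spread, they were 0, 50, 1, 0, 0, 18, 3, 17 and 2. With the replicate number as a block they were 12, 1495, 2, 27, 0, 942, 1033, 55 and 17, but the numbers were not taken to pair arrays across times. The 55 for side by time came from the other block, the pair of arrays of 1 time and number. Leaving out 1 array at a time gave 0 to 4, 0 to 164, 0 to 2, 0 to 11, 0 to 43, 0 to 570, 3 to 172, 23 to 31 and 0 to 6. No filter gave 1 between 6 and 12 h and 5 between 6 and 48 h, the stricter filter gave 3 between 12 and 24 h, and quantile normalization gave 2 between 6 and 48 h, 8 between 12 and 24 h and 2 between 12 and 48 h. Other counts stayed within 1.5 times under these filters, quantile normalization and no variance trend.

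Of 32 called differences on named genes, 0 were called in all 11 leave-one-out fits, 2 in 10 of them (Fkbp5, 48 minus 6 h, and Arpc5, 24 minus 12 h) and 28 in 5 or more. Signs turned almost only with other probe sets of a gene. For 24 minus 6 h these were Rrm2 (0.04), Mxd4 (0.24), Rora (-0.47), Hspa8 (0.21), Pgk1 (0.10), C1qb (0.13), Pdgfra (0.42), Cbln1 (-0.24) and Col3a1 (0.03). For 48 minus 24 h they were Aplnr (-0.39), Csnk1d (-0.12, -1.11 and -0.43), Srxn1 (0.04), Txn1 (-0.01), Laptm5 (-0.37 and -0.07) and Pax6 (-0.45). For other pairs they were Per3 (0.04, 12 minus 6 h), Aldoa (0.02, 24 minus 12 h), Slc1a3 (0.08) and Mt1 (0.09, both 48 minus 6 h). Hlf, 24 minus 6 h, turned to 0.87 with another probe set, 0.22 with the term shared with the 6 h arrays and, leaving out 1 array at a time, ran from -0.3 to 0.02, the latter without 6 h replicate 1. The number of arrays limits all of these.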
